A study of Mus musculus with 30 samples.

Results

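Peritoneal macrophages from 6 COX-2>COX-1 mice were compared with those from 6 wild-type mice (WT+LPS), both groups having received lipopolysaccharide (LPS), a component of the bacterial outer wall. These 12 samples, out of 30 in the series, were chosen by the genotype and treatment that the labels give. All mice were of the C57BL/6 strain and 12 to 16 weeks old. LPS was injected into the peritoneal cavity at 2 mg/kg, and the cells were taken 6 h later. From what is known of the line, COX-2>COX-1 mice carry the coding sequence of Ptgs2, which encodes cyclooxygenase-2 (COX-2), in place of that of Ptgs1, which encodes cyclooxygenase-1 (COX-1). Their own Ptgs2 locus is left as in wild type, and the exchange is a knock-in present in all cells, not in macrophages alone. The other groups, used here only for levels to set beside these, held 6 samples each. They were wild-type mice given PBS (WT-LPS), COX-1>COX-2 mice with the opposite exchange and Reversa mice with both exchanges, the last 2 after the same LPS dose. COX-2>COX-1 mice without LPS were not analysed here, so a difference that precedes LPS cannot be told apart from a difference in the response to it.

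Cyclooxygenases turn arachidonic acid, released from membranes by phospholipase A2, into prostaglandin H, from which all prostaglandins and thromboxane are made. COX-1 is made steadily in most tissues, whereas COX-2 is made in macrophages after stimuli such as LPS. The products act on receptors coupled to G proteins. In macrophages prostaglandin E, through the receptors encoded by Ptger2 and Ptger4, raises cyclic AMP, which is known to lower TNF and to raise interleukin-10 production.

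The exchange places the coding sequence of Ptgs2 behind the promoter of Ptgs1, so the native promoters of both genes are shown to set the regulatory context of the 2 loci side by side. They come from RefSeq (GRCm38.p6, plus strand) and run from 250 bases before to 50 bases after the start that the promoter table assigns, at chr2:36230176-36230475 for Ptgs1 and chr1:150099781-150100080 for Ptgs2. The Ptgs1 window lies inside the annotated gene, which spans 36216742 to 36258593 and has several transcript models, so it is the promoter of 1 of its starts. Capitals mark matches, on either strand, to 5 motifs. The TATA box was searched as TATAAA. For the E-box the letters were CACGTG. A core of the cyclic AMP response element was searched as CGTCA, the GC box as GGGCGG. A loose NF-kB pattern was written GGGNNNNNCC.
Ptgs1 promoter: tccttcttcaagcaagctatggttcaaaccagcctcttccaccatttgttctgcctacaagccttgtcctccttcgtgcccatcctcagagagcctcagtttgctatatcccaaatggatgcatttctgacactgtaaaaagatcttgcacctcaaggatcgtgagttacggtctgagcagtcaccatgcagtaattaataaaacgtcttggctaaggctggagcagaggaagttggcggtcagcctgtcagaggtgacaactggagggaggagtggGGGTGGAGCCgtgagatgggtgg
Ptgs2 promoter: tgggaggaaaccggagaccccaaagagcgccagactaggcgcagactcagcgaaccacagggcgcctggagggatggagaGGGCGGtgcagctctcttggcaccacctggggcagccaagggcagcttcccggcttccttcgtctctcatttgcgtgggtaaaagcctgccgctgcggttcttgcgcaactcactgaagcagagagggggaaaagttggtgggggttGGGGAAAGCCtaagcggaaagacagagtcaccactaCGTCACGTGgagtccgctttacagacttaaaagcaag
The Ptgs1 window held 1 match, to the NF-kB pattern. The Ptgs2 window held 1 match each to the E-box, CGTCA, the GC box and the NF-kB pattern, with CGTCA and the E-box overlapping. Of 32851 mouse promoter windows of this length, 7.15% held the E-box, 20.8% CGTCA, 35.7% the GC box, 50.8% the NF-kB pattern and 13.6% the TATA box. A match is a description of the letters and was not tested as a binding site.

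RNA was counted on an nCounter panel, a method that counts colour-coded probes bound to RNA and needs no amplification step. There were 248 target genes on it, mainly of inflammation, beside 6 reference genes. The values are the signal deposited by the authors, brought to 1 common level of the reference genes Cltc and Gapdh in every lane. Estimated from the steps between low values, the counts per sample were 585756 ± 147569 in COX-2>COX-1 (range 339356 to 760348) and 611433 ± 84632 in WT+LPS (range 485431 to 701289; SD, n = 6 each). None of the 96 negative control values of these lanes was above 20, so a signal of 20 served as the limit of detection. In each of the 3 runs the COX-2>COX-1 samples were in lanes 5 and 6 and the WT+LPS samples in lanes 3 and 4. Lane position and genotype thus cannot be told apart. Positive control A was at 8475 in COX-2>COX-1 sample 51 and at 17086 to 35758 in the other 11 samples. The lowest count, 339356, was that of COX-2>COX-1 sample 54. COX-2>COX-1 sample 52 stood apart from the other 5 of its group, with 26 of 192 genes over 2-fold from their median (14 or fewer in each of the other 11 samples). Calls that it changed are given with and without it, as are several of the larger differences that it moved.

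Of the 2 cyclooxygenase genes Ptgs1, the replaced one, fell below detection, and Ptgs2, the inserted one, did not pass the test. Ptgs1 signal was 1 at the lowest, 1.81 at the median and 5.77 at the highest in COX-2>COX-1, all under the limit of detection. In WT+LPS it was 156 at the lowest, 242 at the median and 347 at the highest. The groups did not overlap, and Ptgs1 was at least 11.4-fold lower in COX-2>COX-1. An exact two-sided permutation test gave p = 0.0022 (adjusted over 2 tests 0.0043), the smallest value that 6 against 6 samples allow. Because Ptgs1 is the replaced gene and of the 2 groups only WT+LPS lay above detection, this outcome was set in advance. The p checks the genotype label and is no further result. The fitted log2 difference, -6.18 ± 0.29 (SE), depends on the pseudocount because 1 group lay under the limit of detection, and is not a measured size. Wild-type cells without LPS held a Ptgs1 signal of 2652 ± 364 (SD, n = 6), COX-1>COX-2 cells 441 ± 84.1 (n = 6) and Reversa cells 240.4 ± 171 (n = 5).

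Ptgs2 signal in COX-2>COX-1 was 4714 at the lowest, 5320.3 at the median and 10194 at the highest, against 3719, 4664 and 7007 in WT+LPS. The ranges overlapped, and 2 of 6 COX-2>COX-1 samples, 52 among them, lay above all of WT+LPS. The log2 difference was 0.36 (exact two-sided permutation p = 0.15), with a 95% interval in limma of -0.10 to 0.82. The smaller bound and the larger bound correspond to 0.934-fold and 1.76-fold of the wild-type level. Without WT+LPS sample 52, which held the highest value of its group, the difference was 0.47 with an exact permutation p of 0.048. Without COX-2>COX-1 sample 52 it was 0.22 with an exact p of 0.30. In WT-LPS Ptgs2 was under 20 in 5 of 6 samples. The position of the probe was not known here, so transcripts of the native Ptgs2 locus and of the exchanged Ptgs1 locus cannot be told apart in this line.

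**Figure D1:**
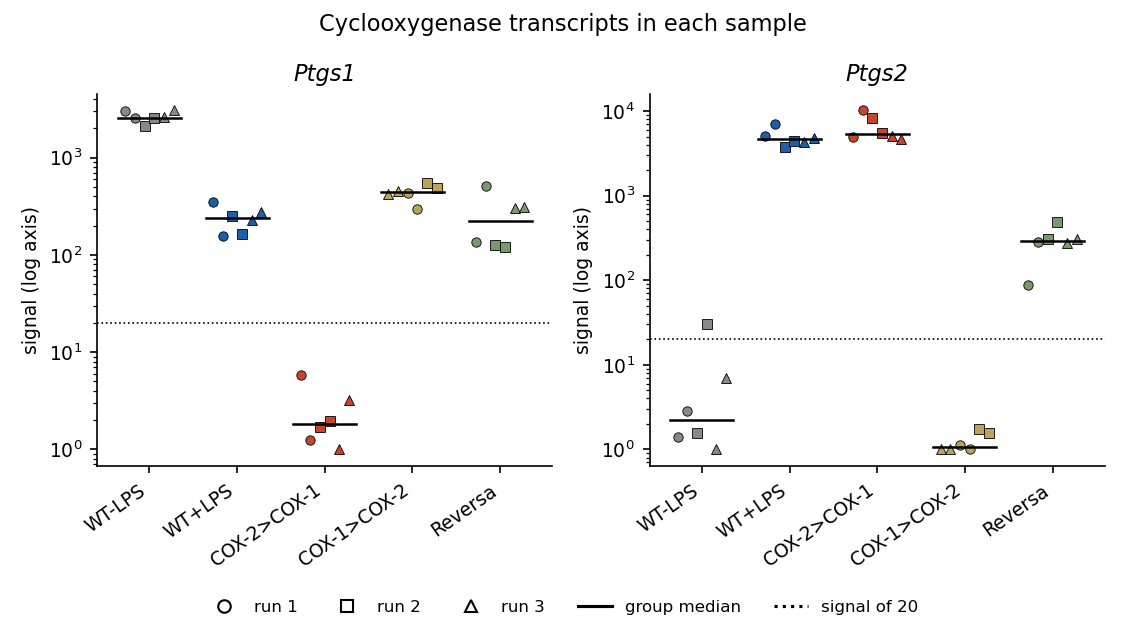
Signal of Ptgs1 and Ptgs2 (log axis) in each sample of the 5 groups, with the run shown by the shape of the point, bars at group medians and a dotted line at 20. Reversa samples 55 and 56 are drawn separately. All 6 COX-2>COX-1 samples lie under 20 for Ptgs1, while their Ptgs2 range of 4714 to 10194 overlaps that of WT+LPS.

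Mef2a was the only other gene whose difference passed the test. It encodes a transcription factor of the MEF2 family, whose members bind DNA as dimers and are activated by p38 MAP kinase and held in check by class IIa histone deacetylases such as Hdac4. Mef2a signal was 50.4 at the lowest, 98.7 at the median and 160 at the highest in COX-2>COX-1, against 199, 269 and 295 in WT+LPS. All 6 COX-2>COX-1 samples lay below all 6 wild-type samples. It fell by 1.49 ± 0.25 (SE) on the log2 scale, 2.80-fold, with a 95% interval of -2.03 to -0.94 (limma, adjusted p = 0.0044). The counts behind these values were estimated at 26 to 149 per sample in COX-2>COX-1 and 199 to 278 in WT+LPS, so that the lowest sample carries the largest counting error. Because the cells were measured in bulk, fewer cells that express the gene and less RNA per cell cannot be told apart, here and for every gene below.

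The Mef2a difference had the same sign in each run. Within runs 1, 2 and 3 it was -1.49, -1.88 and -1.09, with 2 samples against 2 and adjusted p = 0.45, 0.28 and 0.11 in limma. With run as a block the adjusted p was 0.018. Among the other groups Mef2a signal was 481 ± 80.3 without LPS in wild type (SD, n = 6), 279.8 ± 97.1 in the COX-1>COX-2 line (n = 6) and 292 ± 56.7 in Reversa (n = 5). In 1 limma fit of the LPS groups it was lower in COX-2>COX-1 than in COX-1>COX-2 by -1.49 ± 0.27 (SE, adjusted p = 0.00073) and than in Reversa by -1.63 ± 0.28 (adjusted p = 0.0006), adjusted over 192 genes. These are differences of means, and 1 COX-1>COX-2 sample, at 122, lay within the COX-2>COX-1 range.

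The other 3 MEF2 genes and Hdac4 did not pass. Mef2b was at 59.9 ± 15.3 against 41.8 ± 11.7 in WT+LPS (log2 difference 0.51, adjusted p = 0.19), on the other side of the wild-type level from Mef2a. Mef2c (Mef2c_Mm on the panel) was at 503 ± 101 against 497 ± 119, and Mef2d at 335 ± 95.6 against 309.8 ± 33.7. Hdac4 was at 252 ± 84.0 against 227 ± 26.1, a log2 difference of 0.11 with a 95% interval of -0.27 to 0.49. The 5 genes thus held 1 that was lower and 4 that did not pass, with a median log2 difference of 0.08 that changed sign under 2 of 4 other scalings, against 0.02 over all tested genes.

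**Figure D2:**
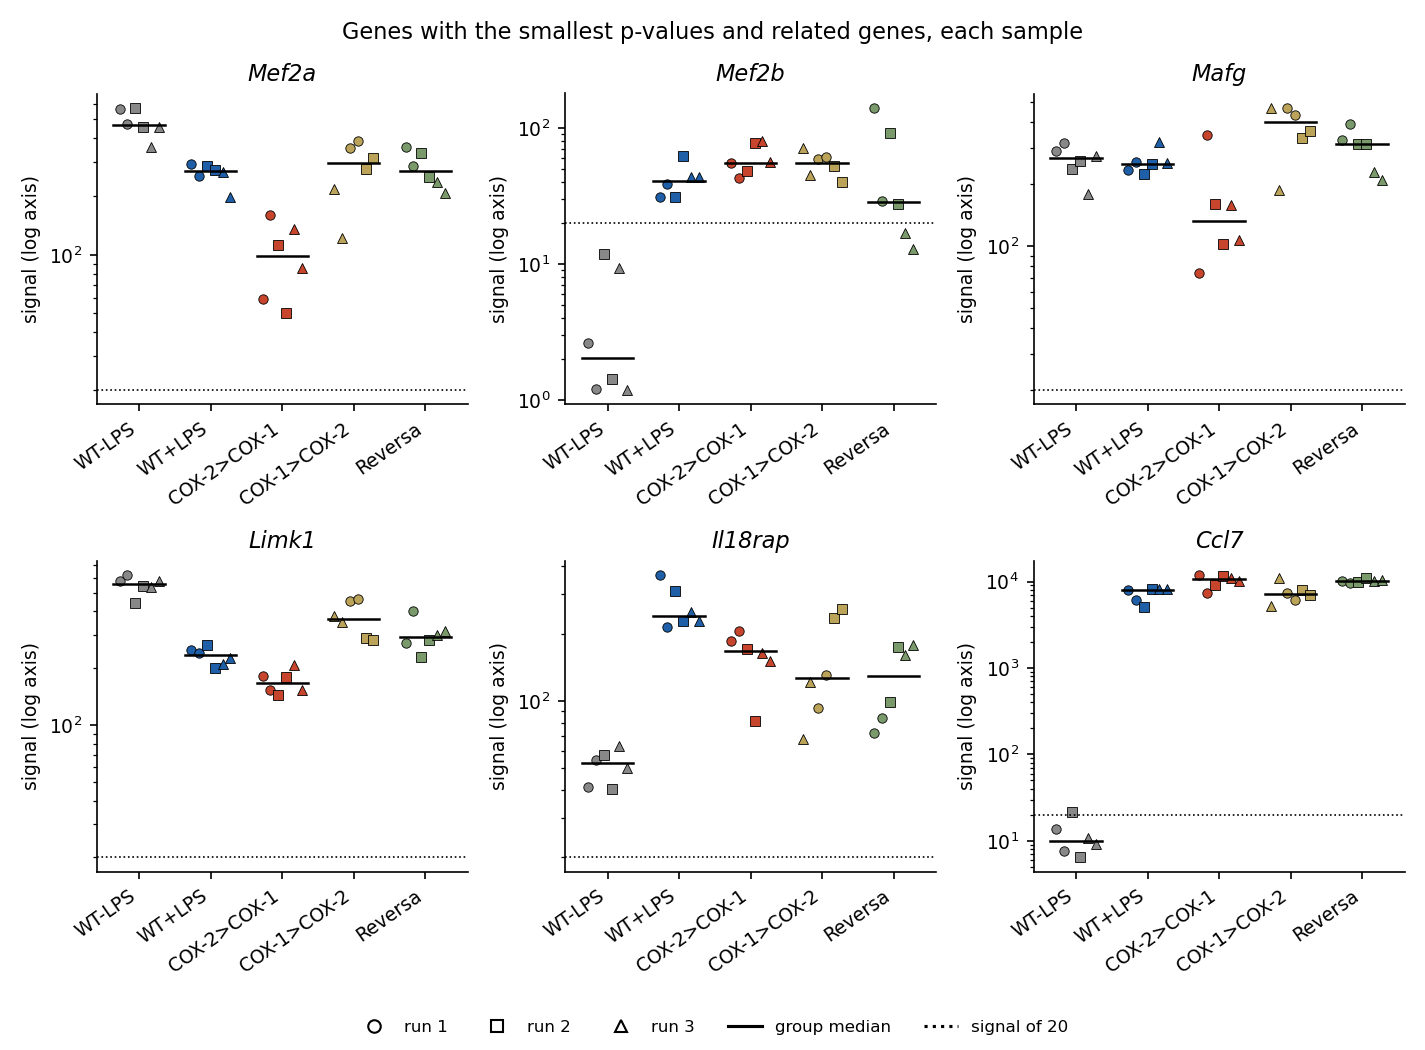
Signal (log axis) of 6 genes in each sample of the 5 groups, with runs as shapes, bars at group medians and a dotted line at 20. Mef2a values of COX-2>COX-1 (50.4 to 160) lie below those of WT+LPS (199 to 295), whereas Limk1, Mafg and Ccl7 overlap by 1 sample or more.

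Few differences passed the test across the panel. Of 248 target genes 192 had a signal above 20 in at least 6 of the 12 samples and were tested on log2(signal + 1) with limma. Of these 2 passed (1.04% of genes tested), none higher (0%) and 2 lower (1.04%). The unadjusted p was under 0.05 for 34 genes (17.7%), 16 of them higher (8.33%) and 18 lower (9.38%), with adjusted p from 0.15 to 0.26 for the 32 that did not pass. Groups did not overlap in 3 genes (1.56%), Ptgs1, Mef2a and Il18rap. Ptgs1 entered the test only through its level in WT+LPS, so its call was set by how it passed the filter, and Mef2a is the 1 call that was not. For 158 of the 192 genes the unadjusted 95% interval lay within a 2-fold change either way, and for 93 within 1.5-fold. Over all 192 genes 100 had higher and 92 lower means. After scaling to equal total signal 7 genes passed, all lower. That scaling moved the median of all genes by -0.08, to 67 higher and 125 lower means. The adjusted p values given below under equal total signal include this common shift. The count of genes past the test was 2 with run as a block. Within each run it was 1, Ptgs1. Without COX-2>COX-1 sample 52 it was 4, with Mafg and Elk1 added. Without sample 53 it was also 4, with C1s and Creb1 added.

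**Figure D3:**
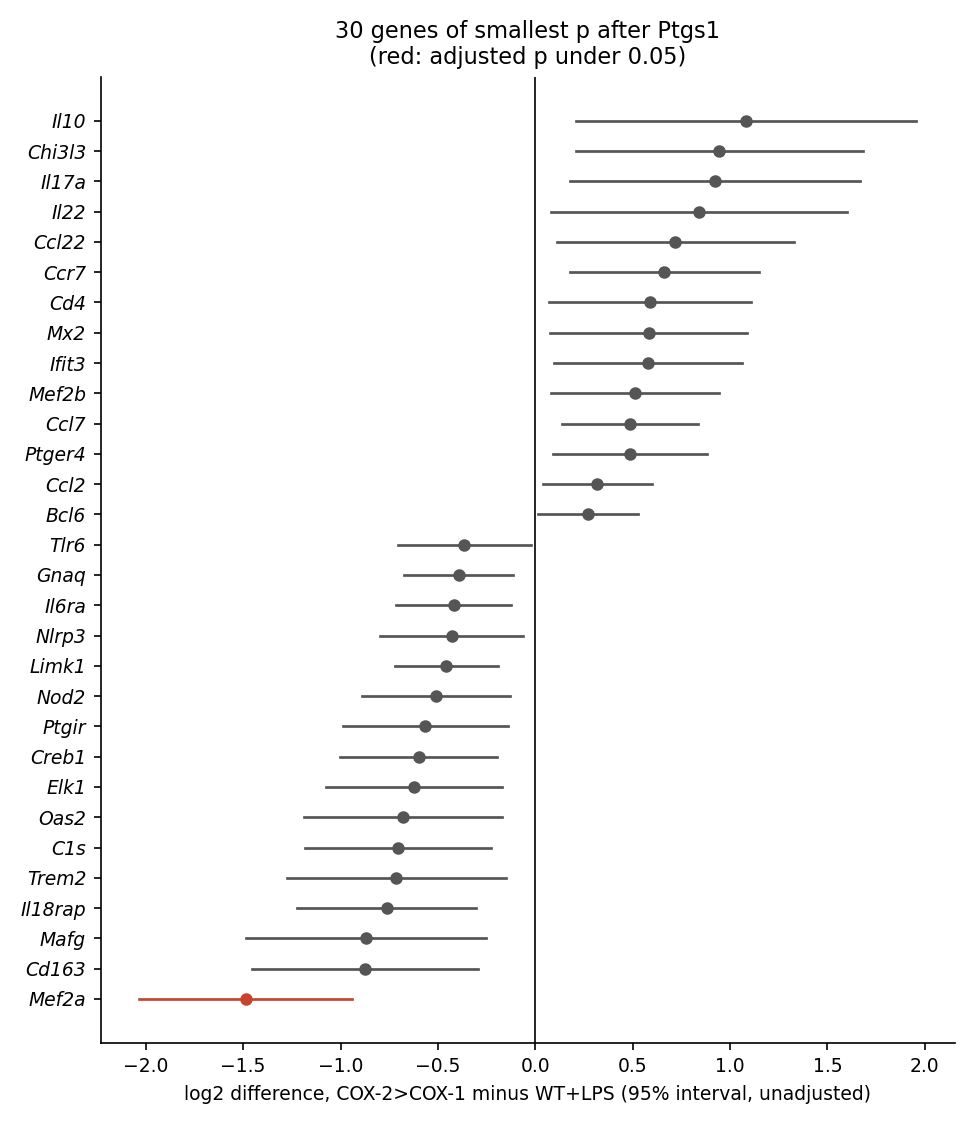
Log2 difference of COX-2>COX-1 minus WT+LPS with its unadjusted 95% interval for the 30 genes of smallest p after Ptgs1, ordered by the difference. Mef2a (red) is the 1 gene shown with an adjusted p under 0.05, at -1.49, and the points of the others lie between -0.88 and 1.08.

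Several genes of signalling and transcription had lower values without passing. Il18rap, the accessory chain through which interleukin-18 signals, was at 81.4, 168 and 205 (lowest, median and highest) in COX-2>COX-1 and at 215, 239 and 367 in WT+LPS, with no overlap (log2 difference -0.76 ± 0.21, limma adjusted p = 0.15). Its adjusted p was 0.034 after scaling to equal total signal and 0.047 after scaling to equal medians. Limk1, which phosphorylates cofilin and so slows the turnover of actin filaments, was at 144, 167 and 208 against 201, 234 and 265, so that 5 of 6 samples lay below all of WT+LPS (-0.46 ± 0.12, adjusted p = 0.15). Under equal total signal its adjusted p was 0.049. Cofilin itself, encoded by Cfl1, was at 27422 ± 4167 against 24681 ± 2415 (adjusted p = 0.58).

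Mafg, one of the small MAF proteins that pair with Nfe2l2 (NRF2) on antioxidant response elements, turned on 1 sample. Its signal was 345.6 in sample 52 and 74.3 to 161 in the other 5 COX-2>COX-1 samples, against 225 to 321 in WT+LPS. The log2 difference was -0.87 ± 0.29 with all samples (limma adjusted p = 0.15) and -1.13 ± 0.19 without sample 52 (adjusted p = 0.0036), when the groups no longer overlapped. The other 4 genes of this list did not pass. Nfe2l2 was at 1809 ± 358 against 1933 ± 247, Keap1, its inhibitor, at 287 ± 26.7 against 293.5 ± 38.1, Mafk at 585 ± 121 against 547 ± 78.2 and Maff at 385 ± 78.9 against 325 ± 60.9 (SD, n = 6 each).

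The transcription factors Creb1, a target of cyclic AMP signalling, and Elk1, a target of ERK, had low signals. Creb1 was at 20.7, 26.8 and 45.7 against 35.9, 47.1 and 50.9, and Elk1 at 13.6, 24.1 and 40.3 against 31, 37.4 and 48.9 (adjusted p = 0.15 each in limma). In 4 of 6 samples for Creb1 and 5 of 6 for Elk1 the value lay below all of WT+LPS. Without sample 53 the adjusted p of Creb1 was 0.041, and without sample 52 that of Elk1 was 0.045. Gnaq, a G protein subunit that couples receptors to phospholipase C, was at 608 ± 95 against 796 ± 90.4 (-0.39 ± 0.13, adjusted p = 0.15), and 0.049 under equal total signal. Gnas, the subunit that raises cyclic AMP, was at 4120 ± 1275 against 3360 ± 361 (0.25, adjusted p = 0.43), and the difference was 0.11 without sample 52.

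Of 7 tested genes for cyclooxygenases, phospholipase and prostanoid receptors 1 was lower, Ptgs1, and 6 did not pass. Ptgir, the prostacyclin receptor, was at 105 ± 24.6 against 156 ± 38.6 (log2 difference -0.56, limma adjusted p = 0.15). Ptger4, one of the receptors for prostaglandin E that raise cyclic AMP, was at 376 ± 122 against 259.6 ± 33.7 (0.49, adjusted p = 0.17), and was named after its values were seen. Pla2g4a, the phospholipase that releases arachidonic acid, was at 1156 ± 205 against 1221 ± 227. Ptger1, Ptgfr and Tbxa2r were under 20 in all 12 samples. None of the 5 tested lipoxygenases and leukotriene receptors passed in limma, and 0 had an unadjusted p under 0.05. Alox5, which starts leukotriene synthesis, was at 164 ± 18 against 196 ± 49.9, and Ltb4r1, the leukotriene B receptor, at 42.9 ± 8.94 against 53.6 ± 8.36 (adjusted p = 0.47 and 0.29).

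Among main products of LPS-treated macrophages, Il6, Il1b, Tnf, Nos2 and Arg1 had log2 differences between -0.18 and 0.07. Il10, another such product, had a log2 difference of 1.08 without passing (limma adjusted p = 0.17) and is described below. Il6 was at 2090.2 ± 522 against 2061 ± 492 (SD, n = 6 each), a log2 difference of 0.02 with a 95% interval of -0.40 to 0.43, where WT-LPS held 16.0 ± 7.70. Il1b was at 5376 ± 921 against 5232 ± 1610 (0.07, -0.34 to 0.47). Tnf was at 453 at the lowest, 491 at the median and 1388 at the highest, against 403, 534 and 877 (0.01, -0.60 to 0.61). Nos2, the inducible nitric oxide synthase, was at 6021 ± 3218 against 6187 ± 1181 (-0.18, -0.82 to 0.45). Arg1, which competes with it for arginine, was at 3191 ± 2232 against 2717 ± 1183 (0.05, -0.92 to 1.01). Without sample 52 the sign turned for Nos2 (0.06), Tnf (-0.24), Arg1 (-0.21) and Il6 (-0.09), with adjusted p from 0.61 to 0.93 in limma, and Il1b was at 0.01. With all samples the intervals of Il6, Il1b, Tnf and Nos2 stay within a 2-fold change, and that of Arg1 reaches just past 2-fold upward. None of 15 tested pro-inflammatory cytokines passed in limma or had an unadjusted p under 0.05, and their median of 0.02 changed sign under 2 of 4 other scalings. Il12b, a chain of interleukin-12, was at 35.4 ± 18.6 against 20.3 ± 9.76 (0.73, adjusted p = 0.28). Without sample 52, its highest value, the Il12b difference was 0.54 (limma adjusted p = 0.45).

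Higher values without a call were found for several chemokines and interleukins. Ccl7, which attracts monocytes, was at 7334, 10603 and 11942 (lowest, median and highest) in COX-2>COX-1 and at 5096, 8074 and 8227 in WT+LPS, with 5 of 6 samples above all wild-type samples (0.49 ± 0.16, limma adjusted p = 0.15). Without sample 52, the 1 sample within the wild-type range, the groups did not overlap. Ccl22, which attracts regulatory and Th2 cells through Ccr4, was at 1231, 1848 and 4791 against 902, 1238 and 1501 (0.72, adjusted p = 0.19). Sample 52 held the highest value, and without it the difference was 0.46 (adjusted p = 0.26). Of 11 tested monocyte and lymphocyte chemokines none passed in limma (3 with an unadjusted p under 0.05, all higher, beside 8.33% of all genes), and their median was 0.25 against 0.02 over all tested genes. Cxcl2 was at 9124 ± 1193 against 9483 ± 2046 and Cxcl3 at 6429 ± 2171 against 7067 ± 782 (-0.19, and -0.34 without sample 52), both neutrophil attractants, of which 4 were tested, with 0 past the threshold in limma and 0 at an unadjusted p under 0.05.

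Il10, the main anti-inflammatory interleukin of macrophages, was at 266, 414 and 1286 in COX-2>COX-1 and at 112, 252 and 359 in WT+LPS. Sample 52 held the highest value, and 4 of 6 samples lay above all of WT+LPS. The log2 difference was 1.08 ± 0.41 (limma adjusted p = 0.17), and 0.79 without sample 52 (adjusted p = 0.27). Chi3l3, a marker of alternative activation, was at 78.7, 151 and 322 against 47.9, 76.2 and 135 (0.94, adjusted p = 0.17). Its highest value was also in sample 52, without which the difference was 0.73 (limma adjusted p = 0.27). Cd163, a scavenger receptor for haemoglobin, was at 58.6 ± 22.1 against 106 ± 31.4 (-0.88, adjusted p = 0.15). The 14 tested genes of anti-inflammatory and alternative activation thus had members on both sides, none past the test. Of these 14, 3 had an unadjusted p under 0.05, beside 17.7% of all genes. Their median of 0.04 changed sign under 2 of 4 other scalings.

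Among 18 tested interferons and interferon-stimulated genes none passed in limma, and their median of 0.08 also changed sign with the scaling. In the same fit 4 had an unadjusted p under 0.05 (beside 17.7% of all genes). Of these 3 were higher (beside 8.33%) and 1 was lower (beside 9.38%). Oas2, an antiviral enzyme, was at 477, 1115 and 1451 against 1409, 1597 and 2161, so that 5 of 6 samples lay below all of WT+LPS (-0.68 ± 0.24, limma adjusted p = 0.15). Ifit3, another antiviral gene, was at 6046, 7142 and 14032 against 3926, 4826 and 7540.3 (0.58 ± 0.22, adjusted p = 0.19). Without sample 52, its highest value, the Ifit3 difference was 0.41 (limma adjusted p = 0.27). Oas2 was the 1 lower gene at that p, and Ifit3, Mx2 (0.58) and Ifit2 (0.52) were the 3 higher ones. Mx2 and Ifit2 were named after their values were seen. The groups overlapped in both Oas2 and Ifit3.

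Of 14 tested Toll-like and NOD-like receptors and adaptors none passed in limma (3 with an unadjusted p under 0.05, all lower), 10 had lower and 4 higher means, and the median was -0.15, beside 92 lower and 100 higher means and 9.38% lower at that p over all genes. Nod2, a sensor of bacterial muramyl dipeptide, was at 262 ± 64.2 against 369 ± 60.6 (-0.51, limma adjusted p = 0.15, and 0.0499 under equal total signal). Nlrp3, an inflammasome sensor, was at 2163 ± 440 against 2923 ± 633.5 (-0.43, adjusted p = 0.20). Among 10 tested complement genes none passed in limma (1 with an unadjusted p under 0.05, lower, beside 9.38% of all genes), with a median of -0.22. C1s, a protease of the classical pathway, was at 32.6, 35.9 and 80.0 against 59.1, 72.4 and 95.4 (-0.71, adjusted p = 0.15), with an adjusted p of 0.025 without sample 53 and 0.049 under equal total signal. C1qb was at 15425 ± 3277 against 18892 ± 4349 (adjusted p = 0.42).

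The other lists described here held no gene past the test in limma. At an unadjusted p under 0.05 they held 0 NF-kB, 0 MAP kinase and 0 MHC class II genes and 4 cytokine and chemokine receptors. They also held 3 of 13 tested signal-responsive transcription factors (Creb1, Elk1 and Bcl6) and 1 of 7 tested genes of G proteins and protein kinase C. Over all 192 genes the share at that p was 17.7%. Of 10 tested NF-kB and death receptor genes Birc2 was at 1007 ± 103.5 against 1157 ± 99.7 and Ripk1 at 329 ± 60.8 against 373 ± 38.9 (limma adjusted p = 0.34 and 0.48). In the MAP kinase cascade, with 16 tested, the adaptor Grb2 was at 3465.5 ± 909 against 2699 ± 366 (adjusted p = 0.29). All 4 genes of MHC class II and costimulation had higher means, as had 100 of all 192 genes, and none passed, with a median of 0.44. H2-Eb1 was at 15201 ± 5299 against 10878 ± 2687 and Cd86 at 4740 ± 2072 against 3434 ± 970.5 (0.46 and 0.43, adjusted p = 0.29 and 0.38). Without sample 52 these differences were 0.31 and 0.23, and that of Grb2 moved from 0.33 to 0.21. Of 11 tested cytokine and chemokine receptors Il6ra was at 427 ± 53.3 against 574 ± 96.0 (-0.42, adjusted p = 0.15). Ccr7, which guides cells to lymph nodes, was at 2466, 3427 and 6907 against 1660.5, 2372 and 3339 (0.66, adjusted p = 0.15), with 5 of 6 samples above all of WT+LPS. Without sample 52, its highest value, the Ccr7 difference was 0.49 (limma adjusted p = 0.19).

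**Figure D4:**
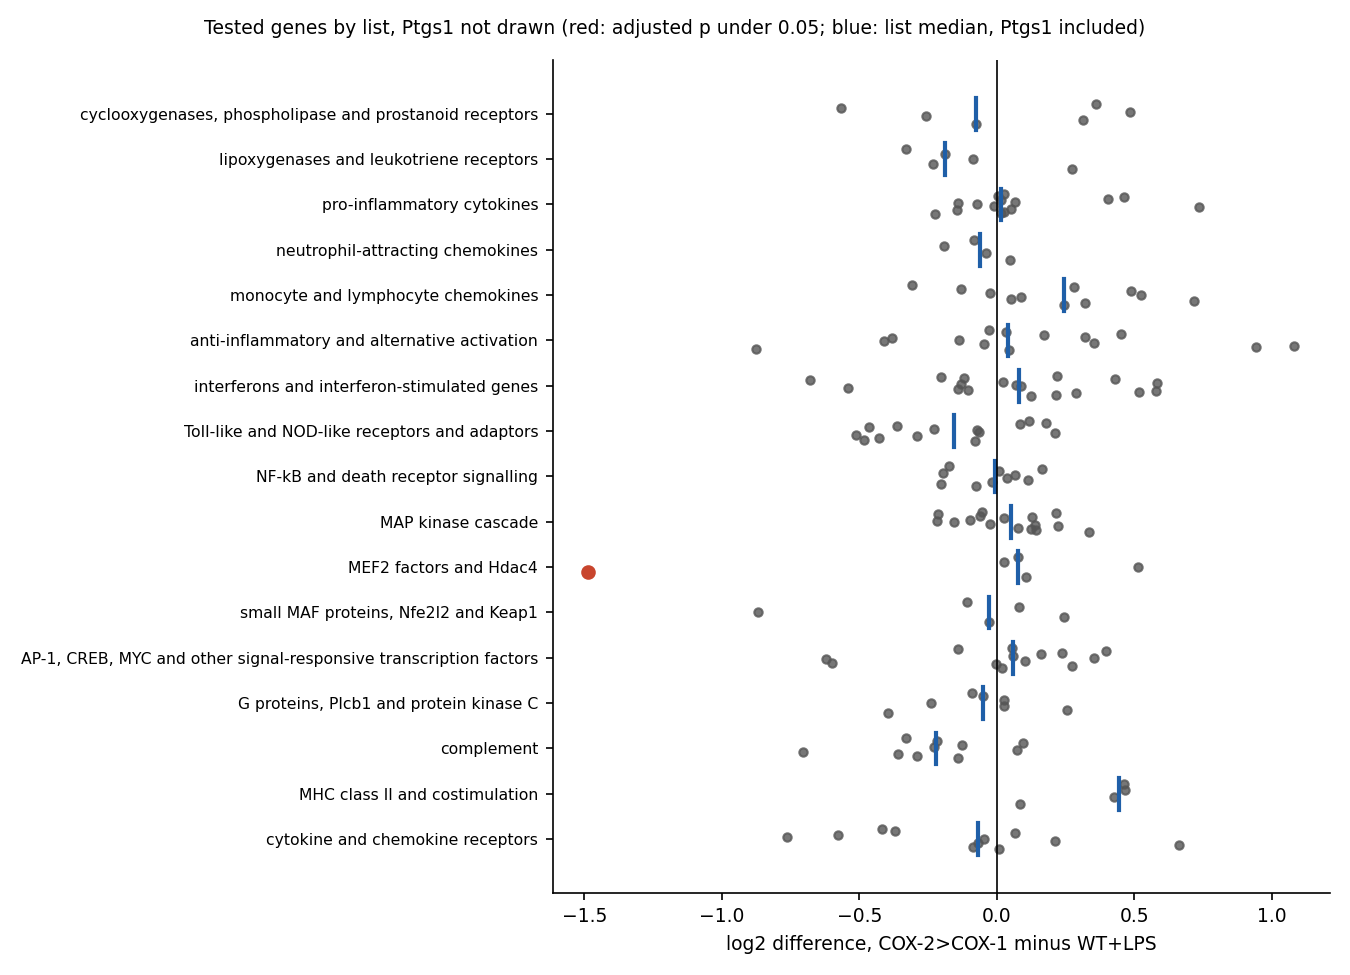
Log2 difference of COX-2>COX-1 minus WT+LPS for each tested gene of 17 lists, with Ptgs1 not drawn, blue bars at list medians and genes past the test in red. Mef2a at -1.49 is the only red point, and the list medians lie between -0.22 and 0.44.

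Markers of the cell types that the harvest could hold were examined as well. All 9 macrophage markers on the panel were tested, and Trem2 was under 20 in 1 COX-2>COX-1 sample. None passed in limma, 7 had lower and 2 higher means, 2 had an unadjusted p under 0.05 (Cd163 and Trem2, both lower), and the median was -0.14. Over all 192 genes 92 had lower and 100 higher means, 9.38% were lower at that p, and the median was 0.02. C1qa was at 6748 ± 1537 against 7406 ± 1767 and Tyrobp at 9110.0 ± 608 against 8786 ± 1888. Their summed signal was 35881 to 52123 in COX-2>COX-1 and 37360.2 to 67861 in WT+LPS. Trem2, a lipid receptor of macrophages, was at 32.3 ± 10.7 against 54.0 ± 19 (-0.71, limma adjusted p = 0.17). Of 3 neutrophil markers Cxcr1 was under 20 in all 12 samples. Cxcr2 was at 49.6 ± 33.7 against 46.0 ± 12.4 and Mmp9 at 43.9 ± 15.4 against 40.6 ± 8.75 (-0.07 and 0.06, or -0.34 and -0.05 without sample 52), and the summed signal was 60.1 to 177 against 71.3 to 121.

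T cells and NK cells were represented by 7 markers, of which 5 were tested, 2 had a higher mean at an unadjusted p under 0.05 (8.33% of all genes) and none passed in limma, with a summed signal of 823 to 2032 against 905 to 1507. Il17a, a cytokine of T cells and innate lymphoid cells, was at 355, 720 and 1446 against 225, 423 and 602 (0.92, adjusted p = 0.17), and Cd4 at 67.9 ± 14.4 against 47.2 ± 21.2 (0.59, adjusted p = 0.20). The 3 B cell markers had a summed signal of 3240 to 5289 against 3032 to 4243, with Ltb at 436 ± 96.7 against 324 ± 102 and Lta at 130.2 ± 34.0 against 99.0 ± 27.4. Most of the sum was Cd40 (2798 to 4519 against 2796 to 3728), which was at 789 to 1034 in WT-LPS. Cd40 is also in the list of MHC class II and costimulation, so the sum is not a measure of B cells alone. The 3 dendritic cell markers, Ccr7, Ccl17 and Ccl22, had a summed signal of 4016 to 11931 against 2819 to 4868, and a median log2 difference of 0.66. Sample 52 held the highest value of each, and so the highest sum. Without it the differences of Ccr7 and Ccl22 were 0.49 and 0.46. Ccl22 was at 12.5 to 56.3 in WT-LPS against 902 to 1501 in WT+LPS, and Ccl17 at 7.7 to 17.8 against 85.6 to 126. Ifng and Il17a were at 1 to 13.7 and 1 to 4.08 in WT-LPS, against 410 to 1152 and 225 to 602. The T cell and dendritic cell sums thus also follow the LPS response and do not measure those cells alone. The part of these cell types in the values of Ccr7, Ccl22, H2-Eb1 and Il17a was not tested. The mesothelial and stromal markers Flt1 and Pdgfa were at 38.8 ± 14.8 against 47.8 ± 5.99 and 98.2 ± 44.2 against 69.7 ± 20.3. No mast cell or eosinophil marker was above 20 in enough samples to be tested.

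COX-2>COX-1 samples varied more among themselves than WT+LPS samples. The median SD of log2 signal over the 192 genes was 0.33 in COX-2>COX-1 and 0.28 in WT+LPS, and the SD was larger in COX-2>COX-1 for 128 genes. Without sample 52 it was 0.25 and 96 genes, so that the wider spread was not present without that sample. In sample 52 the chemokines Cxcl5 (357) and Ccl4 (18667), the cytokines Il10 (1286) and Tnf (1388) and the costimulator Cd86 (8850) lay above the other 5 of its group, whose highest values were 74.6, 7764, 591, 609 and 4692. Cfb, a complement factor, was at 5259 there against 16710 to 35184 in the others, Nos2 at 2360 against 4411 to 11918 and Tlr4, the LPS receptor, at 272 against 563 to 887. These genes were named after their values were seen. In a principal component analysis of the tested genes without Ptgs1, component 1 (33.8% of variance) placed sample 52 at 8.92 and the other 11 samples between -4.67 and 1.77. On component 2 (18.6%) the other 5 COX-2>COX-1 samples lay at 0.27 to 5.36 and all 6 WT+LPS samples at -3.24 to -0.89, with sample 52 at -1.48 among the latter.

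**Figure D5:**
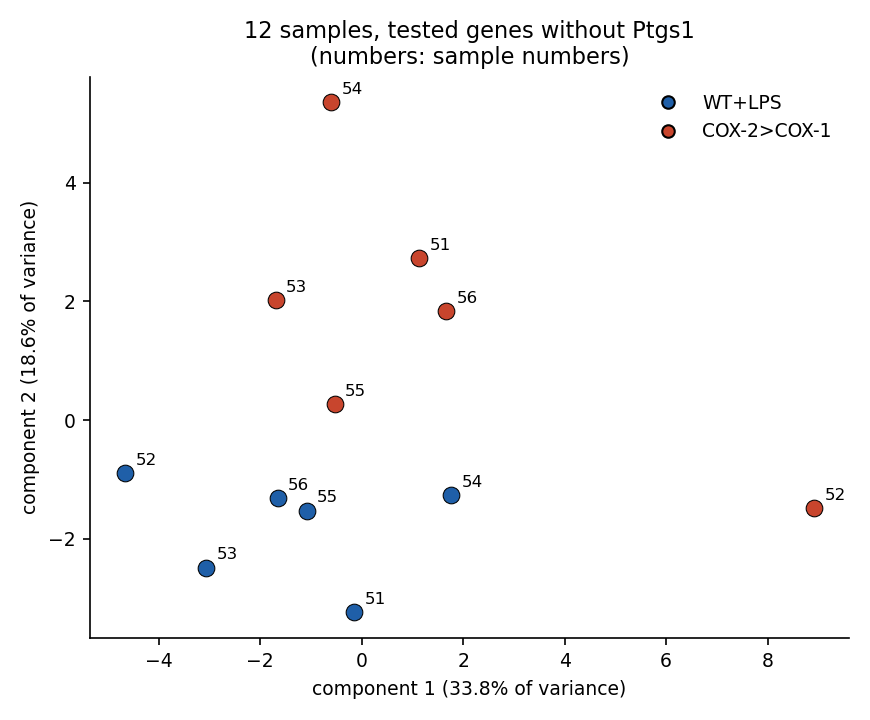
First and second principal components of the 12 samples from the tested genes without Ptgs1, with sample numbers beside the points. Sample 52 of COX-2>COX-1 stands alone on component 1 at 8.92, and the other 5 lie above the 6 WT+LPS samples on component 2.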

How the data were processed

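Each deposited value is an nCounter signal of 1 gene in 1 lane. The steps that made them are not given in the sources used here and were read from the values: a background removed, a floor of 1, and gene rows scaled to equal Cltc and Gapdh geometric means (8148 in each lane). The larger of the 2 deposited tables (268 rows) was used; the 266 rows of the other are equal. No column lacked a sample. Low values lay on whole steps (100% within 0.1 of a step), which gave the estimated counts. They are background-subtracted, so no count test was run.

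Target genes with signal above 20 in at least 6 of the 12 samples were tested on log2(signal + 1) with limma 3.58.1 (lmFit, eBayes, Benjamini-Hochberg threshold 0.05, two-sided; R 4.3.3), fitted to the 12 samples. Fold changes on this scale understate those of low genes. Ptgs1 and Ptgs2 were also tested by exact permutation (numpy 2.4.6). A fold against samples under 20 is a bound with those values set to 20. The contrasts with the other exchange lines came from 1 fit of the 23 LPS samples, with Reversa samples 55 and 56 averaged, since their counts differed by hardly more than counting noise (chi-square 1.25 per gene; at least 39.8 in the 30 pairs within the groups compared). Lists are described by counts and medians without a set test. The fit was tested on simulated data.

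Named genes were Ptgs1 and Ptgs2, all genes past the threshold or without overlap, the 20 of smallest p, the 2 of smallest p per list, and Il6, Il1b, Tnf, Il10, Nos2 and Arg1; 1 gene of these and 1 list are not reported here. The groups, lists and rules were chosen with earlier results of these data known. Of 254 panel names 247 stand in the RefSeq gene table, and panel names are printed. Mice are separate per the labels. Alternatives were scaling, filter, pseudocount, samples in the fit, replicate number or run as a block, each run alone, prior variance, each sample left out and the second table; leaving out COX-2>COX-1 samples 51 and 52 together was added after seeing the data.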

Additional observations from a re-analysis of the deposited data

Results flagged for a closer look

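Of 110 groups of 6 values examined, 7 held a sample whose gap to its nearest neighbour was large against the range of its group; chance gives about 1 in 20 such groups. In COX-2>COX-1 sample 52 Tnf was 1388 (453 to 609 in the other 5 samples), Cd86 was 8850 (3448 to 4692) and Gnas was 6666 (3288 to 3967). In COX-2>COX-1 sample 54 Il18rap was 81.4 (151 to 205). In WT+LPS sample 56 Mef2a was 199 (256 to 295), still above every COX-2>COX-1 sample. In WT+LPS sample 55 Mafg was 321 (225 to 256). The total signal of WT+LPS sample 51 was 766533 (620696 to 652455).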

How the results depend on the processing

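The count of 2 genes past the test was 7 after scaling to equal total signal, all lower (Ptgs1, Mef2a, Il18rap, Limk1, C1s, Gnaq and Nod2). It was 1 with a filter of 20 in all 12 samples, which removes Ptgs1, and 1 within each of runs 1, 2 and 3. Leaving out 1 sample gave 2 to 4, with 4 only without COX-2>COX-1 sample 52 or 53. The 3 genes without overlap became 6 under equal total signal, 5 with 6 reference genes, 3 to 8 with 1 sample left out (8 without sample 52, 6 without WT+LPS sample 54, 5 without COX-2>COX-1 sample 55) and 10 without samples 51 and 52 together. Ptgs1 passed in 28 of 29 alternatives and Mef2a in 26 of 29, all but the single runs, with the same sign in all. For Ptgs2 the log2 difference ranged from 0.22 to 0.47 with 1 sample left out, and at 0.47, without WT+LPS sample 52, the exact permutation p was 0.048. For Ptgs1 it ranged from -6.40 to -6.05. Scaling to equal total signal moved the median of all genes by -0.08, and scaling by 6 reference genes moved it by -0.10. Pgk1, a reference gene not held equal, differed by 0.51 on the log2 scale between the groups. The replicate numbers did not pair the samples (correlations of same-numbered deviations -0.30 to 0.23, and 1 of 6 samples correlated best with its own number), and the replicate block gave 2 genes past the test. The 6 samples a group and signals near 20 limit the precision.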

Other observations

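Of 12 genes that the filter left out although some values were above 20, those 3 of smallest p without a filter are named here, after their values were seen. Ifna1, a type I interferon, was above 20 in 5 of 6 COX-2>COX-1 samples (11.7 to 44.1) and in none of 6 WT+LPS samples (5.52 to 15.9). Without a filter, over all 248 target genes, it did not pass (adjusted p = 0.055 in limma). Ppp1r12b, a subunit of myosin phosphatase, had a lower mean in COX-2>COX-1 (log2 difference -0.99) and did not pass either (adjusted p = 0.054 in limma). It was above 20 in 0 of 6 COX-2>COX-1 and 2 of 6 WT+LPS samples, so this difference is not a measured size. Ccl11, the eosinophil chemokine eotaxin, was at 3.87 to 20.7 against 1 to 4.16, and passed when no filter was used (adjusted p = 0.014), although 10 of these 12 values were under the limit of detection. In WT-LPS Ifna1 and Ccl11 were under 20 in all samples.

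Il22, a cytokine of the same cells as Il17a, was at 413, 1248 and 1799 (lowest, median and highest) in COX-2>COX-1 and at 365, 647 and 895 in WT+LPS (limma adjusted p = 0.22). Traf2, an adaptor of TNF receptors, was at 132 in COX-2>COX-1 sample 54 and at 424 to 551 in the other 5 samples of that group.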
